A study of Mus musculus with 9 samples.

Results

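The genes described here are 7 genes of antigen presentation by MHC class II, chosen by symbol for their roles from a table of 34198 gene symbols, where all 7 were found. They are H2-Aa, H2-Ab1 and H2-Eb1, which encode chains of the class II molecules themselves, Cd74, H2-DMa and H2-DMb1, which help to load them with peptide, and Ciita, their transcriptional coactivator. Their RNA was measured by sequencing in atrioventricular (AV) nodes dissected from C57BL/6J mice, 9 libraries in all. The AV node is the small region of the heart that delays and relays the impulse from the atria to the ventricles, and it holds resident macrophages besides its myocytes.

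The Cd11bDTR, Cx3cr1 Cx43-/- and Control groups held 3 libraries each. Cd11bDTR mice carry the diphtheria toxin receptor under the promoter of Itgam, the gene of CD11b, and the design text describes them as depleted of macrophages. That promoter is also active in monocytes, granulocytes and some dendritic cells, so the depletion need not be limited to macrophages. In Cx3cr1 Cx43-/- mice Gja1, the gene of the gap junction protein connexin 43, is deleted in cells that express the chemokine receptor Cx3cr1, which include cardiac macrophages. The labels call the remaining group Control and give it no further allele or treatment. They give no age, no toxin dose and no time after depletion, and they do not say whether nodes were pooled. By the design text, replicates are biological.

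MHC class II molecules are pairs of an alpha and a beta chain that show peptides from engulfed or endocytosed material to CD4+ T cells. The invariant chain, encoded by Cd74, binds newly made pairs and blocks their groove on the way to the endosome, where proteases cut it down to a short remnant called CLIP. The DM dimer, made from H2-DMa and H2-DMb1, then releases CLIP and lets peptides bind. Ciita binds no DNA on its own. It docks on the factors RFX, CREB and NF-Y that occupy a conserved block of X and Y boxes upstream of class II genes, Cd74 and the DM genes. Dendritic cells, B cells and part of the macrophages of the heart carry class II in the steady state, and interferon-gamma can induce it in other cells.

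The upstream regions of the class II genes are shown first because they carry that shared block. A promoter table from RefSeq on build GRCm38.p6 held 4 of the 7 genes, namely H2-Aa, H2-Eb1, H2-DMa and H2-DMb1. The letters searched on both strands were CTNGNAACT for the X box core and GATTGG for the reversed CCAAT core of the Y box, chosen after these promoters had been seen. The X box core occurred in 3.47% of 32851 promoters, within the 250 bases upstream of the start site, and the CCAAT core in 14.6%. The longer Y box CTGATTGG, which contains the CCAAT core, occurred in 3.83%. The X box core followed on the same strand by the CCAAT core, with starts at most 45 bases apart, occurred in 11 promoters, or 0.0335%. Of these, 3 belonged to the genes described here. Below are 95 bases of H2-Aa at chr17:34287853-34287947 on the minus strand and 94 bases of H2-Eb1 at chr17:34305733-34305826 on the plus strand, 5′ to 3′, with the X box core and then the CCAAT core in capitals.
H2-Aa: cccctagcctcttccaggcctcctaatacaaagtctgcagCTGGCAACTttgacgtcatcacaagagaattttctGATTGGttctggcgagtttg
H2-Eb1: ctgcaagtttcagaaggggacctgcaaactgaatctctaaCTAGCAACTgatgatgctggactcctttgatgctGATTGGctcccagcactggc
In H2-Aa the X box core began 84 bases and the CCAAT core 49 bases upstream of the annotated start, 35 bases apart. In H2-Eb1 they began 94 and 60 bases upstream, 34 bases apart. H2-DMb1 held the same pair 35 bases apart, in a stretch that GENCODE annotates as exon. The X box core letters were not found in the windows of H2-DMa. A match of letters is a description of the sequence and no evidence of binding.

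As deposited, the values are CPM (read counts scaled to a fixed total, rounded by the authors), and 12925 genes that reached 1 CPM in at least 3 libraries were tested, all 7 class II genes among them. A single read was worth between 0.0154 and 0.0192 CPM, so 1 CPM rested on about 52.0 to 65.0 reads. The listed genes held 28.3% to 44.0% of the CPM total in Cd11bDTR, 46.8% to 47.9% in Cx3cr1 Cx43-/- and 42.8% to 48.7% in Control libraries, and 14713 to 18748 symbols were above 0. The scaling between libraries therefore bears on every Cd11bDTR comparison, and without rescaling all tested genes had a median log2 change of -0.49 against Control. Resident macrophage markers checked the depletion, and their 15 genes summed to 75.8, 71.0 and 83.2 CPM in Cd11bDTR, 447, 558 and 421 CPM in Cx3cr1 Cx43-/- and 436, 279 and 366 CPM in Control libraries. Gja1 stood at 56.8 to 89.9 CPM in Cd11bDTR, 179 to 250 CPM in Cx3cr1 Cx43-/- and 163 to 246 CPM in Control, so whole-node Gja1 does not tell the Cx3cr1 Cx43-/- libraries from Control. Itgam stood at 2.34 to 9.72 CPM in Cd11bDTR and 1.64 to 8.93 CPM in Control, Cx3cr1 at 1.42 to 2.93 CPM in Cd11bDTR and 3.61 to 7.01 CPM in Control, and Hbegf, whose human counterpart is the toxin receptor, at 18.8 to 53.8 CPM in Cd11bDTR and 10.4 to 13.9 CPM in Control.

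In macrophage-depleted nodes the chains of the class II molecules were lower than in Control. H2-Aa, the alpha chain of the I-A molecule, stood at 8.87, 4.22 and 6.87 CPM in Cd11bDTR libraries 7, 8 and 9, against 63.2, 27.7 and 42.8 CPM in Control libraries 1, 2 and 3. H2-Ab1, the beta chain that pairs with it, stood at 7.52, 7.02 and 10.1 CPM in Cd11bDTR and 55.8, 19.97 and 39.3 CPM in Control. H2-Eb1, the beta chain of the I-E molecule, stood at 9.13, 6.85 and 11.8 CPM in Cd11bDTR and 68.3, 30.8 and 44.3 CPM in Control. The groups did not overlap for any of the 3 chains, and Control 2 was the closest Control library each time. The log2 change on the scale of CPM + 0.5 was -2.63 for H2-Aa (SE 0.29, limma adjusted p = 6.29e-07), -2.05 for H2-Ab1 (SE 0.29, limma adjusted p = 1.83e-05) and -2.26 for H2-Eb1 (SE 0.27, limma adjusted p = 2.15e-06). In whole tissue, fewer cells that carry a transcript and less of it per cell cannot be told apart.

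Cd74, the invariant chain, fell with the chains it escorts. It stood at 19.6, 13.0 and 23.8 CPM in Cd11bDTR libraries, against 159, 76.0 and 118 CPM in Control libraries. The highest Cd11bDTR library lay well below the lowest Control library. The log2 change was -2.60 (SE 0.26, limma adjusted p = 1.30e-07).

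The genes of the DM dimer were lower as well, with less certainty. H2-DMa stood at 2.12, 2.94 and 3.88 CPM in Cd11bDTR and 9.09, 3.76 and 7.33 CPM in Control libraries, and Cd11bDTR 9 lay above Control 2. Its log2 change was -1.01 (SE 0.35, limma adjusted p = 0.0276). H2-DMb1 stood at 0.50, 0.00 and 1.71 CPM in Cd11bDTR and 4.93, 1.34 and 3.8 CPM in Control libraries, again with Cd11bDTR 9 above Control 2. Its log2 change was -1.76 (SE 0.48, limma adjusted p = 0.00678). The size rests on the 0.5 added, and it was -2.67 with 0.1 added and -0.95 with 2 added, called both times. The value of 0.00 in Cd11bDTR 8 allows up to 0.0577 CPM, the value of 3 reads, as counting error. Of the 50-base windows of the H2-DMb1 transcript, 27.2% also occur in its neighbour H2-DMb2, so reads there could be assigned to either gene or dropped. Both DM calls were sensitive to the processing. H2-DMa was not called once columns were brought to a common total (0.169 as adjusted p), with median-of-ratios scaling (0.268), or without Control 1 (-0.76, adjusted p = 0.159), Control 3 (-0.91, adjusted p = 0.101) or Cd11bDTR 7 (-0.82, adjusted p = 0.0790). H2-DMb1 was not called at a common total (adjusted p = 0.0503), with median-of-ratios scaling (0.0685), or without Control 1 (-1.44, adjusted p = 0.0547).

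Ciita, the coactivator on which these genes depend, did not pass the test. It stood at 0.88, 1.04 and 0.51 CPM in Cd11bDTR and 2.08, 0.73 and 1.85 CPM in Control libraries, and the groups overlapped. The log2 change was -0.60 (SE 0.44, limma adjusted p = 0.291), with a 95% interval from -1.52 to 0.32. These values rested on about 33 to 54 reads in Cd11bDTR and 39 to 130 reads in Control libraries. At this level the added 0.5 limits how large a fall the scale can show.

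Of the list as a whole, 6 of the 7 class II genes were called lower and 0 higher in Cd11bDTR against Control. Of all tested genes 36.2% were called, 33.0% lower and 3.23% higher. For 4 of the 7, the 3 chains and Cd74, every Cd11bDTR library lay below every Control library, which held for 38.0% of all tested genes. The 7 had a median log2 change of -2.05, or -1.57 relative to the median of all tested genes. After rescaling to a common total, 4 of the 7 were called lower with a median of -1.73, and median-of-ratios scaling gave 4 and -1.58. H2-Aa, H2-Ab1, H2-Eb1 and Cd74 were called lower under all 16 alternative settings and left-out libraries, with log2 changes between -3.12 and -1.58.

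**Figure D1:**
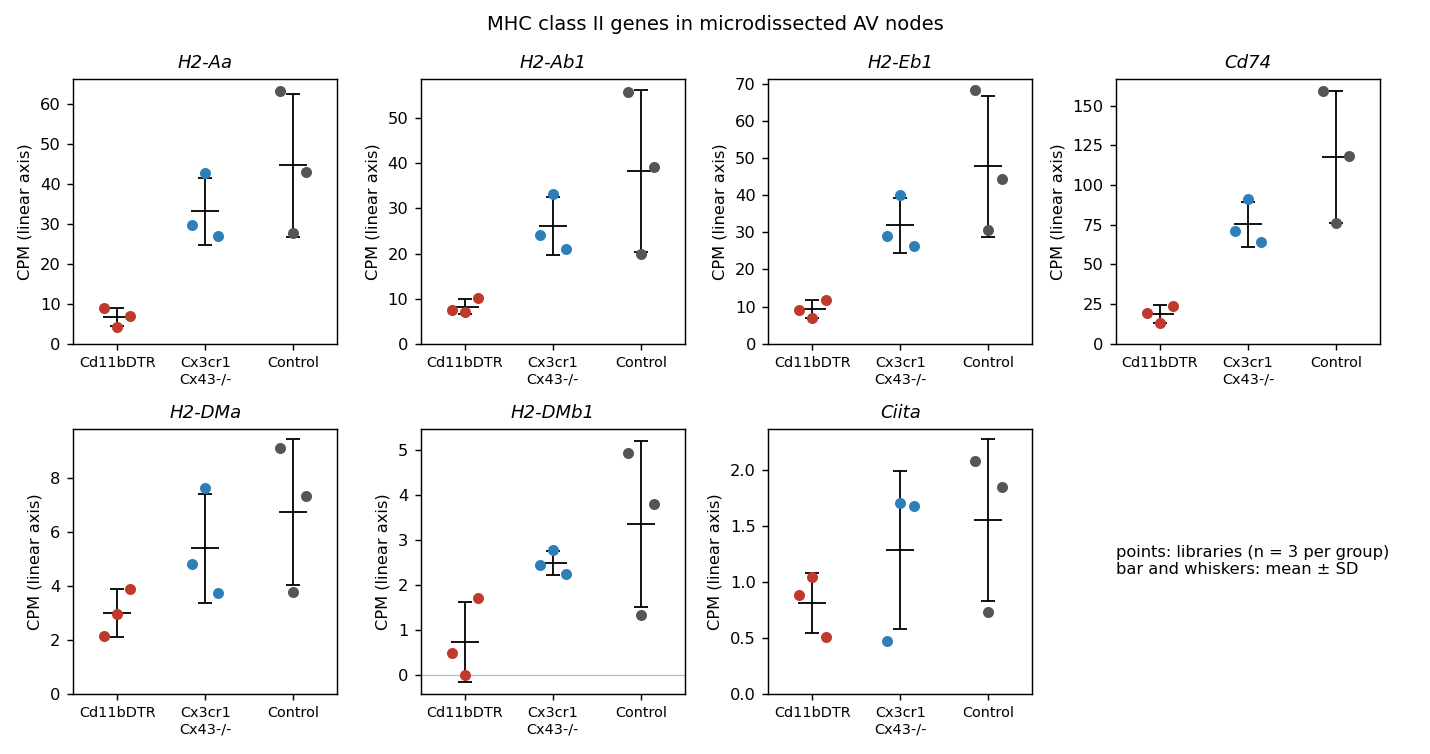
CPM (linear axes that differ between panels) of the 7 class II genes in Cd11bDTR, Cx3cr1 Cx43-/- and Control libraries, with each point a library and bars giving mean ± SD (n = 3). For H2-Aa, H2-Ab1, H2-Eb1 and Cd74 all Cd11bDTR points lie below all others, while H2-DMa and Ciita overlap between groups.

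In Cx3cr1 Cx43-/- nodes the class II genes stood within the range of Control or close to it. H2-Aa was at 29.7, 42.6 and 27.0 CPM in Cx3cr1 Cx43-/- libraries 4, 5 and 6, against 63.2, 27.7 and 42.8 CPM in Control. H2-Ab1 was at 24.2, 33.3 and 21.0 CPM in Cx3cr1 Cx43-/- and 55.8, 19.97 and 39.3 CPM in Control. H2-Eb1 was at 29.1, 40.2 and 26.3 CPM in Cx3cr1 Cx43-/- and 68.3, 30.8 and 44.3 CPM in Control. For each chain Control 2 lay among the Cx3cr1 Cx43-/- libraries or below them, and Control 1 and 3 lay above all of them. Cd74 was at 70.8, 91.2 and 64.1 CPM in Cx3cr1 Cx43-/- and 159, 76.0 and 118 CPM in Control, and only Cx3cr1 Cx43-/- 5 lay above the lowest Control library.

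The loading and control genes showed the same overlap. H2-DMa was at 4.79, 7.63 and 3.73 CPM in Cx3cr1 Cx43-/- and 9.09, 3.76 and 7.33 CPM in Control. H2-DMb1 was at 2.45, 2.77 and 2.24 CPM in Cx3cr1 Cx43-/- and 4.93, 1.34 and 3.8 CPM in Control. Ciita was at 0.47, 1.70 and 1.68 CPM in Cx3cr1 Cx43-/- and 2.08, 0.73 and 1.85 CPM in Control. Control 2 was below all Cx3cr1 Cx43-/- libraries for H2-DMb1 but not for Ciita.

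With limma, 0 of the 7 were called in Cx3cr1 Cx43-/- against Control, where 0.00774% of all tested genes were called. That share is 1 gene, Cytl1, named after its value was seen, with a log2 change of -1.23 (limma adjusted p = 0.0330). At an unadjusted p under 0.05 there was 1 of the 7, beside 1.48% of all tested genes. It was Cd74, with a log2 change of -0.59 (SE 0.26, limma unadjusted p = 0.0298, adjusted p = 1, 95% interval from -1.12 to -0.06). The other log2 changes were -0.37 for H2-Aa, -0.45 for H2-Ab1, -0.53 for H2-Eb1, -0.27 for H2-DMa, -0.23 for H2-DMb1 and -0.23 for Ciita. The median of the 7 was -0.37, beside 0.07 for all tested genes. It depended on single Control libraries. Without Control 2 the median was -0.70, beside 0.002 for all tested genes. Without Control 1 it was -0.08, beside 0.15, and 0 of the 7 were called each time. No class II gene had all Cx3cr1 Cx43-/- libraries below all Control libraries, which held for 3.0% of tested genes.

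Set against each other, the Cd11bDTR nodes were lower than the Cx3cr1 Cx43-/- nodes in 5 of the 7 class II genes, where 40.7% of all tested genes were called lower. The log2 changes were -2.26 for H2-Aa (SE 0.29, limma adjusted p = 5.13e-06), -1.60 for H2-Ab1 (SE 0.29, limma adjusted p = 0.000248), -1.74 for H2-Eb1 (SE 0.27, limma adjusted p = 4.96e-05) and -2.0 for Cd74 (SE 0.26, limma adjusted p = 5.48e-06). H2-DMb1 changed by -1.53 (SE 0.48, limma adjusted p = 0.0138; -2.43 with 0.1 added and -0.76 with 2 added), a call not made at a common total (adjusted p = 0.0986), with median-of-ratios scaling (0.142), without Cx3cr1 Cx43-/- 5 (-1.46, adjusted p = 0.0511) and without Cd11bDTR 8 (-1.0, adjusted p = 0.0812). H2-DMa (-0.73, limma adjusted p = 0.0875) and Ciita (-0.37, limma adjusted p = 0.504) did not pass. Libraries did not overlap for 5 of the 7, the 3 chains, Cd74 and H2-DMb1, beside 50.6% of all tested genes. The median of the 7 was -1.60, beside -0.58 for all tested genes. This comparison and that against Control share the Cd11bDTR libraries, so they are not independent.

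**Figure D2:**
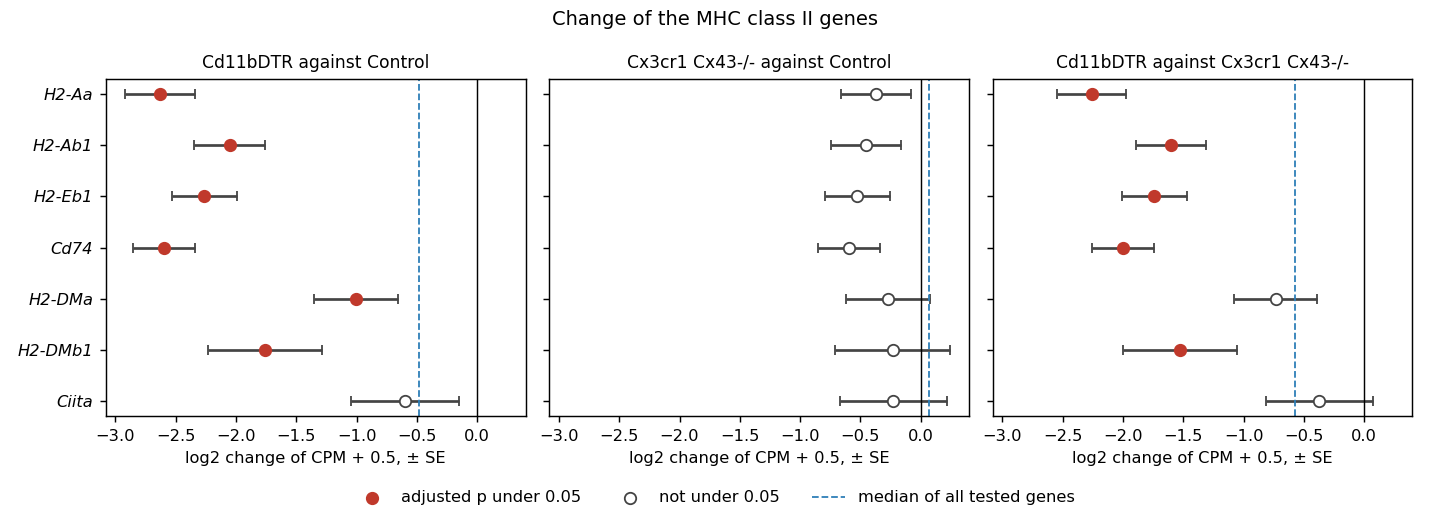
Log2 change of CPM + 0.5 with its SE for each class II gene in the 3 comparisons, filled where the limma adjusted p is under 0.05. The dashed line marks the median of all tested genes, at -0.49, 0.07 and -0.58, and Ciita lies near it in Cd11bDTR against Control.

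Within a group the same libraries were often high or low for several class II genes. Control 1 was the highest and Control 2 the lowest Control library for 7 of the 7 genes, while among all tested genes Control 1 was highest in 61.3% and Control 2 lowest in 59.0%. Cx3cr1 Cx43-/- 5 was highest in its group for 7 of the 7, beside 45.1% of all tested genes. Cd11bDTR 9 was highest in its group for 5 of the 7, although it was the lowest library for 66.5% of all tested genes and had the smallest share of reads in listed genes. Cd11bDTR 8 was lowest for 5 of the 7, beside 23.6% of all tested genes. Ciita was highest in Cd11bDTR 8 and lowest in Cd11bDTR 9. Control 2 and Cd11bDTR 8 also held the fewest symbols above 0 in their groups, 15130 and 14713, and the part of this in the class II values was not tested.

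Over the 9 libraries, log2 values of Cd74 and H2-Eb1 had a Pearson correlation of 0.997, and the lowest correlation among the 3 chains and Cd74 was 0.97, between H2-Aa and H2-Ab1. These points share the group differences. Taken as deviations from the group means, the correlation of Cd74 with H2-Eb1 was 0.98 and that of H2-Aa with H2-Ab1 was 0.82. With the mean of the standardised values of the 3 chains and Cd74, H2-DMb1 had a correlation of 0.91, H2-DMa of 0.87 and Ciita of 0.57 over the 9 libraries. For deviations from the group means these were 0.85 for H2-DMb1, 0.81 for H2-DMa and 0.40 for Ciita. Of 9364 genes with a mean of at least 5 CPM, the genes outside the set most like that mean were Krba1 (0.98), Hmha1 (0.98), Ncam1 (0.97), Cep164 (0.97), Tnrc18 (0.97) and Slc22a3 (0.97). By deviations from the group means they were Lsamp (0.99), Topbp1 (0.98), Fer (0.97), Lifr (0.96), Hs1bp3 (0.96) and Tnrc18 (0.96). All these correlations describe 9 libraries that share scaling and depth.

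Levels of different genes were compared as CPM per kilobase of transcript, with annotated transcripts of 1128 bases for H2-Aa, 1212 for H2-Ab1, 1669 for H2-Eb1, 1410 for Cd74, 1658 for H2-DMa, 1404 for H2-DMb1 and 6007 for Ciita. On that scale Cd74 was first in 9 of 9 libraries, with means of 13.3 in Cd11bDTR, 53.5 in Cx3cr1 Cx43-/- and 83.6 in Control. H2-Aa averaged 5.90 in Cd11bDTR, 29.4 in Cx3cr1 Cx43-/- and 39.5 in Control, and H2-Ab1 averaged 6.78 in Cd11bDTR, 21.6 in Cx3cr1 Cx43-/- and 31.6 in Control. H2-Eb1 averaged 5.54 in Cd11bDTR, 19.1 in Cx3cr1 Cx43-/- and 28.6 in Control. H2-Aa stood above H2-Ab1 in 7 libraries but below it in Cd11bDTR 8 and 9, and H2-Ab1 stood above H2-Eb1 in 8 libraries. In Cd11bDTR and in Control the means of the 3 chains differed by less than the largest of their SDs between libraries. Within libraries, H2-Aa was first of the chains in every Control and every Cx3cr1 Cx43-/- library. In the Cd11bDTR group it was first in Cd11bDTR 7 only. The DM genes lay far lower, with H2-DMa at 1.80 in Cd11bDTR, 3.25 in Cx3cr1 Cx43-/- and 4.06 in Control and H2-DMb1 at 0.525 in Cd11bDTR, 1.77 in Cx3cr1 Cx43-/- and 2.39 in Control. Ciita was last, at 0.135 in Cd11bDTR, 0.214 in Cx3cr1 Cx43-/- and 0.259 in Control, below H2-DMb1 in 8 of 9 libraries.

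Ratios within a library do not depend on the scaling between libraries. Relative to Cd74, H2-DMa stood at 0.108, 0.227 and 0.163 in Cd11bDTR, 0.0676, 0.0836 and 0.0582 in Cx3cr1 Cx43-/- and 0.0570, 0.0495 and 0.0620 in Control libraries. All 3 Cd11bDTR ratios lay above all others. Ciita relative to Cd74 stood at 0.0449, 0.0802 and 0.0215 in Cd11bDTR, 0.00664, 0.0186 and 0.0262 in Cx3cr1 Cx43-/- and 0.0130, 0.00961 and 0.0156 in Control libraries. The Cd11bDTR ratios lay above all Control ratios, and Cx3cr1 Cx43-/- 6 lay above Cd11bDTR 9. H2-Ab1 relative to Cd74 was 0.383, 0.541 and 0.426 in Cd11bDTR, 0.341, 0.365 and 0.327 in Cx3cr1 Cx43-/- and 0.350, 0.263 and 0.332 in Control libraries. Of the class II genes other than Cd74, 4 (H2-Ab1, H2-Eb1, H2-DMa and Ciita) had Cd11bDTR ratios to Cd74 above all Control ratios. H2-Aa and H2-DMb1 did not, and 83.6% of all other tested genes did. The tests used ratios of CPM + 0.5, which for low genes do depend on the scaling. With 0.5 added, the H2-DMb1 ratios in Cd11bDTR also lay above all Control ratios. The exact two-sided permutation test of 3 libraries against 3 cannot give a p below 0.1. H2-Ab1, H2-Eb1, H2-DMa, H2-DMb1 and Ciita reached it in Cd11bDTR against Control. Over the 18 tests of ratios to Cd74 the smallest adjusted p was 0.18.

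Cd74 was also set against macrophage genes of the same library. Relative to Csf1r, the receptor that keeps macrophages alive, Cd74 stood at 2.53, 2.15 and 2.02 in Cd11bDTR, 1.10, 1.18 and 0.877 in Cx3cr1 Cx43-/- and 2.11, 1.83 and 1.94 in Control libraries. All Cx3cr1 Cx43-/- ratios lay below all others, while Cd11bDTR and Control overlapped. Relative to C1qa, a complement gene of tissue macrophages, Cd74 stood at 2.35, 1.82 and 2.15 in Cd11bDTR, 0.973, 1.13 and 1.11 in Cx3cr1 Cx43-/- and 2.87, 1.76 and 1.93 in Control libraries, and again all Cx3cr1 Cx43-/- ratios lay below all others. Relative to Emr1, the gene of the macrophage surface protein F4/80, Cd74 stood at 4.41, 2.82 and 4.14 in Cd11bDTR, 4.43, 3.50 and 3.85 in Cx3cr1 Cx43-/- and 8.39, 8.14 and 7.62 in Control libraries, and here both Cd11bDTR and Cx3cr1 Cx43-/- lay below Control.

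The other class II genes were set against the same 3 genes. In Cx3cr1 Cx43-/- against Control, 4 of the 7 genes, the 3 chains and Cd74, had ratios to Csf1r below all Control ratios, beside 11.1% of all tested genes, and 4 of the 7 had ratios to C1qa below them, beside 16.6%. Relative to Emr1 it was 5 of the 7, H2-DMa included, beside 8.05%. In Cd11bDTR against Control, 4 of the 7 lay below all Control ratios to Emr1, beside 1.26% of all tested genes, and 0 of the 7 for Csf1r, beside 0.340%. Ratios to Csf1r lay above all Control ratios for 4 of the 7 (H2-Ab1, H2-Eb1, H2-DMa and Ciita), beside 86.2% of all tested genes. For C1qa 0 of the 7 lay below, beside 0.395%, and 2 (H2-DMa and Ciita) above, beside 85.9%. Mean CPM in Cd11bDTR and Control were 4.93 and 14.6 for Emr1, 8.52 and 59.4 for Csf1r, and 8.84 and 53.3 for C1qa. Other resident macrophage markers moved by other amounts. Mean CPM in Cd11bDTR and Control were 3.22 and 40.3 for Mrc1, 12.4 and 16.9 for Lyve1, and 5.10 and 3.06 for Fcgr1. A ratio compared between Cd11bDTR and Control therefore depends on the reference gene chosen. All these ratios to macrophage genes were chosen after values had been seen. Exact permutation tests were run for Cd74 to Csf1r, C1qa and Emr1 and for the other class II genes to Csf1r only. An exact permutation test here cannot go below p = 0.1. The smallest adjusted p over 39 exact permutation tests was 0.163. These 39 also took in the ratios H2-Aa to H2-Ab1, H2-DMa to H2-DMb1, Csf1r to C1qa and Cd74 to B2m. Csf1r stood at 64.3, 77.0 and 73.1 CPM in Cx3cr1 Cx43-/- and 75.4, 41.5 and 61.1 CPM in Control libraries, and C1qa at 72.8, 80.7 and 57.8 CPM in Cx3cr1 Cx43-/- and 55.6, 43.1 and 61.3 CPM in Control. Neither was called (limma adjusted p = 1 for both), and the part of each gene in the ratio was not tested.

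**Figure D3:**
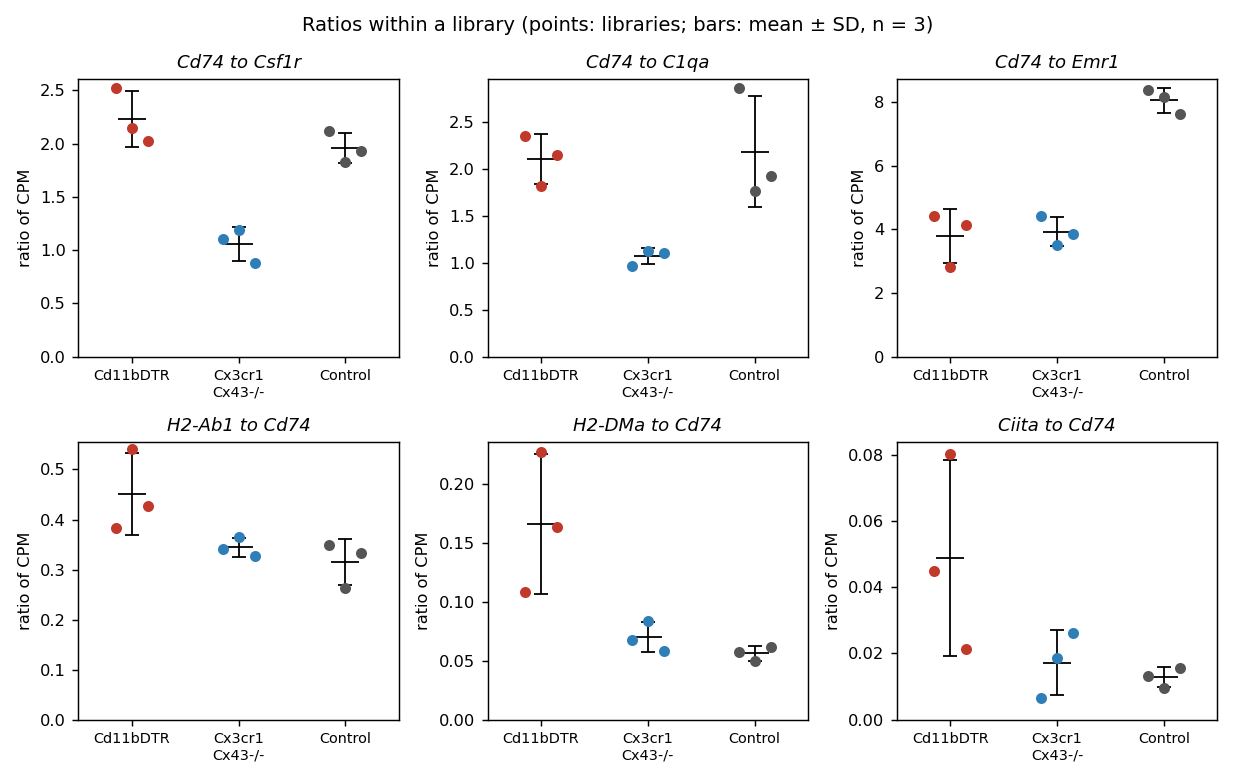
Ratios of CPM within each library, with each point a library and bars giving mean ± SD (n = 3), for Cd74 to the macrophage genes Csf1r, C1qa and Emr1 and for H2-Ab1, H2-DMa and Ciita to Cd74. Cx3cr1 Cx43-/- libraries lie lowest for Cd74 to Csf1r (0.877 to 1.18) and to C1qa, and Cd11bDTR libraries lie highest for H2-DMa to Cd74 (0.108 to 0.227).

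Other class II genes were near the detection limit. H2-Ob, a chain of the DO dimer that restrains DM, stood at 0.10, 0.00 and 0.00 CPM in Cd11bDTR, 1.03, 1.05 and 0.36 CPM in Cx3cr1 Cx43-/- and 1.36, 1.65 and 0.59 CPM in Control libraries. It was lower in Cd11bDTR than in Control (log2 change -1.62, SE 0.47, limma adjusted p = 0.0102). H2-Ob reached 1 CPM in no Cd11bDTR library and so entered the test through the groups where it is high. Its partner H2-Oa reached at most 0.75 CPM, in Cd11bDTR 8, and H2-DMb2 at most 0.80 CPM, in Control 1. H2-Eb2 was above 0 in 2 Control libraries only, at 0.43 and 0.03 CPM, and H2-Ea-ps was listed at 0 in 9 of 9 libraries. C57BL/6 mice carry a defective alpha chain gene for I-E, so their H2-Eb1 protein lacks its usual partner.

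The proteases and reductase that prepare class II ligands did not fall with the class II genes. Of 8 tested processing genes, 0 were called higher and 0 lower in Cd11bDTR against Control, beside 3.23% and 33.0% of all tested genes. Their median was 0.03, and 0 had an unadjusted limma p under 0.05. Ctss, cathepsin S, which cuts the invariant chain to CLIP, stood at 27.1, 28.6 and 38.1 CPM in Cd11bDTR and 25.5, 22.4 and 26.3 CPM in Control libraries (log2 change 0.32, limma adjusted p = 0.245). Ifi30, the lysosomal thiol reductase GILT, stood at 15.5, 11.5 and 12.8 CPM in Cd11bDTR and 11.7, 10.6 and 9.14 CPM in Control. After rescaling to a common total or with median-of-ratios scaling, 5 of the 8 were called higher in Cd11bDTR. Many cell types use these proteases.

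Among 12 tested genes of class II transcription, 4 were called lower and 1 higher in Cd11bDTR, beside 33.0% and 3.23% of all tested genes, and the median was -0.52 beside -0.49. The share called lower was that of all tested genes. Irf4, a factor of dendritic and B cells and some macrophages, stood at 0.07, 0.00 and 0.00 CPM in Cd11bDTR, 1.35, 3.91 and 2.61 CPM in Cx3cr1 Cx43-/- and 1.74, 2.68 and 1.52 CPM in Control (log2 change against Control -2.22, limma adjusted p = 0.000449, a size that depends on the 0.5 added). Irf4 reached 1 CPM in no Cd11bDTR library and so entered the test through the groups where it is high. Rfx5, the DNA-binding subunit of RFX, stood at 1.0, 3.51 and 0.69 CPM in Cd11bDTR and 5.22, 4.03 and 3.84 CPM in Control (log2 change -1.32, limma adjusted p = 0.00979). Irf8, a factor of macrophages and dendritic cells, changed by -1.11 (limma adjusted p = 0.0180). Rfxank, another RFX subunit, was higher by 0.72 (limma adjusted p = 0.0496), with 55.9 CPM in Cd11bDTR 7 and 20.5 and 24.9 CPM in the other libraries of the group. With median-of-ratios scaling only 1 of the 12 was called lower and 1 higher. The NF-Y genes Nfya, Nfyb and Nfyc were among the 7 that did not pass. In Cx3cr1 Cx43-/- against Control 0 of the 12 were called.

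Of 11 tested genes of the interferon-gamma axis, 3 were called lower, among them Ifngr2 (-1.21) and Socs1 (-1.07), and 1 higher, the chemokine gene Cxcl10 (1.71, limma adjusted p = 0.00912), beside 33.0% and 3.23% of all tested genes. Cxcl10 reached 1 CPM in the 3 Cd11bDTR libraries alone and so entered the test through the group where it is high. At a common total 2 of the 11 were called lower and 2 higher. Median-of-ratios scaling left 1 lower and 2 higher. Ifng itself was listed at 0 in 8 of 9 libraries. Of 5 genes of class II turnover and uptake, 4 were called lower and 1 higher in Cd11bDTR, beside the same 33.0% and 3.23%. Cd83, which holds class II at the cell surface, stood at 0.72, 0.00 and 0.00 CPM in Cd11bDTR and 4.13, 3.18 and 3.86 CPM in Control. Like Irf4, Cd83 entered the test through the groups where it is high. March8, a ubiquitin ligase that removes class II from the surface, changed by -0.89, Cd82 by -1.03 and Cd63 by 0.79 on the log2 scale. With median-of-ratios scaling 1 of the 5 was called lower and 1 higher. Of 5 tested costimulatory genes, 2 were called lower, Cd86 (-1.70) and Cd274 (-1.41), beside 33.0% of all tested genes. At a common total or with median-of-ratios scaling 1 of the 5 was called lower. Cd86 stood at 0.33, 1.38 and 0.29 CPM in Cd11bDTR and 2.34, 5.63 and 1.92 CPM in Control.

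MHC class I genes gave another picture in the same libraries. Of 9 tested, 2 were called lower in Cd11bDTR against Control, beside 33.0% of all tested genes. They were Psmb9 (-0.76) and Nlrc5 (-0.94), the class I counterpart of Ciita. After rescaling to a common total or with median-of-ratios scaling, 2 were called higher and 0 lower. The class I light chain B2m stood at 339, 256 and 151 CPM in Cd11bDTR, 234, 337 and 232 CPM in Cx3cr1 Cx43-/- and 211, 156 and 207 CPM in Control. Cd74 relative to B2m averaged 0.0886 in Cd11bDTR, 0.283 in Cx3cr1 Cx43-/- and 0.605 in Control libraries. Ratios to B2m were not computed for the other genes, so no share over all tested genes stands beside it.

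**Figure D4:**
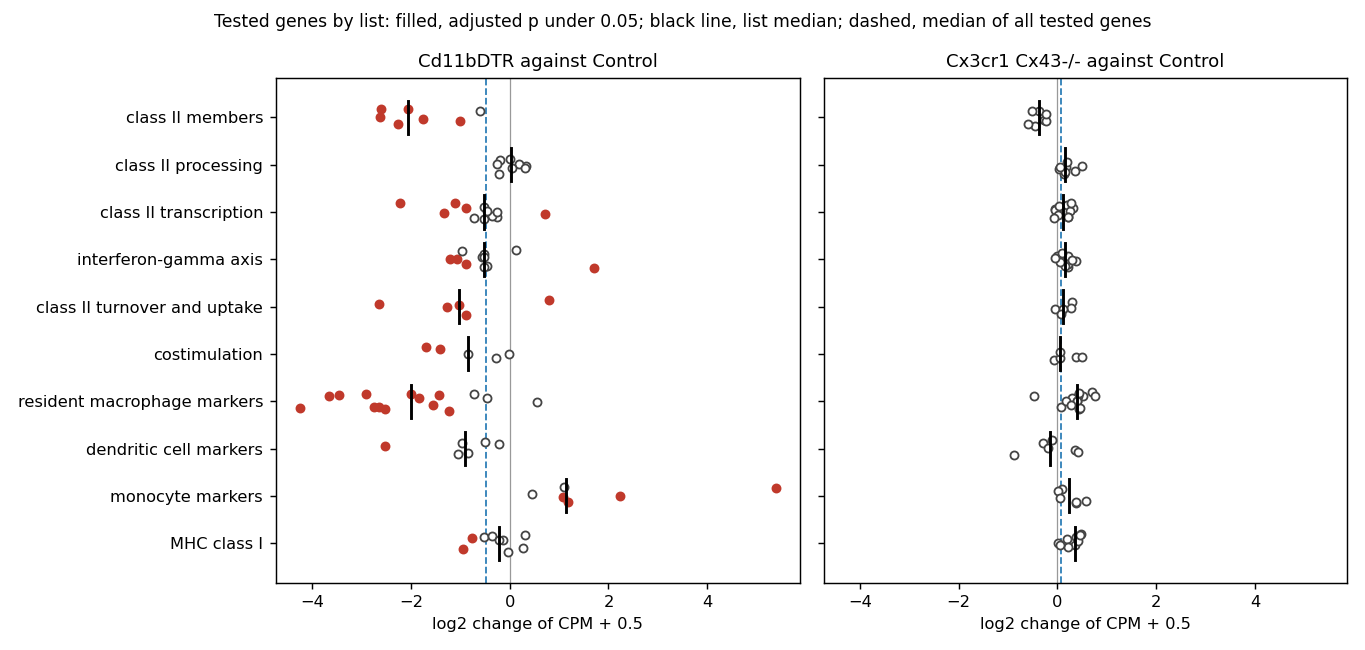
Log2 change of CPM + 0.5 of the tested genes of each list in Cd11bDTR and in Cx3cr1 Cx43-/- against Control, filled where the limma adjusted p is under 0.05, with the list median as a black line. In Cd11bDTR the class II members (median -2.05) and the resident macrophage markers (-1.99) lie farthest left of the lists drawn, and no listed gene is filled in Cx3cr1 Cx43-/-.

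Markers of the cell types that can carry class II were read beside these values. Of 15 resident macrophage markers, 12 were called lower and 0 higher in Cd11bDTR against Control, beside 33.0% and 3.23% of all tested genes. Their median was -1.99. In Cx3cr1 Cx43-/- against Control 0 were called, with a median of 0.40. Of 6 tested dendritic cell markers, 1 was called lower in Cd11bDTR, beside 33.0% of all tested genes. It was Clec10a (-2.53), a lectin also found on macrophages, which reached 1 CPM in no Cd11bDTR library. Clec10a thus entered the test through the groups where it is high. The 11 listed dendritic cell genes summed to 9.14 to 11.7 CPM in Cd11bDTR, 18.4 to 22.6 CPM in Cx3cr1 Cx43-/- and 16.9 to 27.7 CPM in Control libraries. Clec9a, of cross-presenting dendritic cells, stood at 1.43, 0.75 and 0.62 CPM in Cd11bDTR and 1.79, 2.18 and 2.06 CPM in Control. In Cx3cr1 Cx43-/- it stood at 0.83, 1.04 and 0.71 CPM. It lay below all Control libraries in both other groups but was not called in either. Such separation held for 38.0% of all tested genes in Cd11bDTR and 3.0% in Cx3cr1 Cx43-/-. Cd209a, of another dendritic cell subset, was at 0.00, 0.00 and 0.31 CPM in Cd11bDTR, 0.52, 0.59 and 0.68 CPM in Cx3cr1 Cx43-/- and 1.65, 0.48 and 2.48 CPM in Control. The defining markers Xcr1 and Flt3 reached at most 0.83 and 0.90 CPM in any library.

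The 7 listed B cell markers summed to 0 to 1.35 CPM in Cd11bDTR, 3.36 to 4.30 CPM in Cx3cr1 Cx43-/- and 3.60 to 4.20 CPM in Control, and 5 of them, Ms4a1 included, were at 0 in all 3 Cd11bDTR libraries, Pax5 in all 9 libraries. Blk, a kinase of B cells, made up the largest part of each sum above 0 and was the only B cell marker tested. It stood at 1.26, 0.00 and 0.72 CPM in Cd11bDTR, 2.76, 2.55 and 2.36 CPM in Cx3cr1 Cx43-/- and 2.10, 2.90 and 2.56 CPM in Control (log2 change in Cd11bDTR against Control -1.55, limma adjusted p = 0.00707), and it was not called with median-of-ratios scaling. The only tested T cell marker, Cd28, was not called. Of 6 tested monocyte markers 4 were called higher in Cd11bDTR, beside 3.23% of all tested genes. They were Ccr2 (1.19), the receptor that guides monocytes into tissue, Plac8 (2.24), Fn1 (1.08) and Chi3l3. Chi3l3 reached 1 CPM in the 3 Cd11bDTR libraries alone and so entered the test through the group where it is high. Fn1 already stood at 103 to 133 CPM in Control libraries. The AV node myocyte markers moved too, with 9 of 12 called lower in Cd11bDTR, beside 33.0% of all tested genes. After rescaling to a common total or with median-of-ratios scaling it was 7 of 12. The part of each cell type in the fall of the class II genes was not tested.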

How the data were processed

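RNA was sequenced from 3 AV node samples per group with strand-directional libraries, per the labels' protocols. The authors deposited CPM, read counts scaled to a fixed total, for each gene, rounded to 2 decimals. Per the submitters' processing notes the tools were HTSeq 0.6.0, STAR 2.3.0 and edgeR on build mm9, without their roles, and the sources used here do not give the annotation. Rounding hid the whole reads, so no count model was fitted.

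On log2(CPM + 0.5), limma 3.58.1 (R 4.3.3) fitted all 9 libraries in one model with trended empirical Bayes, two-sided contrasts and Benjamini-Hochberg adjustment over the 12925 genes that reached 1 CPM in 3 or more libraries. Calls are adjusted p under 0.05, and fold changes of low genes are understated by the 0.5 added. The genes named are the 7 class II genes, the other class II chains and the class II transcription genes, up to 4 tested genes of each further list with the smallest p in Cd11bDTR against Control, 4 genes that check the labels, and the 6 most like genes by each measure of likeness, and a few of these are left out here. Others (such as Cytl1, Emr1, B2m, Cd209a and Xcr1) were chosen after their values were seen. Members and lists were chosen with earlier results of these data known. Simulated data of 12925 genes with 200 changed gave recovery of 54.4% at a log2 change of 1 and 98.4% at 2 for Cd11bDTR against Control, and 5.18% of calls were false. The same 3 rates were 57.3%, 99.3% and 5.49% in Cx3cr1 Cx43-/- against Control. The changed genes were drawn from those with a mean log2(CPM + 0.5) above 1, so genes as low as Ciita were not covered. Noise was independent between genes and no shift was simulated. In the data 36.2% of genes were called in Cd11bDTR against Control and the median change was -0.49, so these rates need not hold there. Alternatives were other pseudocounts, filters, scalings and variance models and each library left out. Transcript lengths came from GENCODE and promoters from RefSeq, on a build other than the authors'. Limits from read numbers cover counting error only. Ratio tests used scipy 1.17.1 on ratios of CPM + 0.5.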

Additional observations from a re-analysis of the deposited data

How the results depend on the processing

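Of the class II changes under the alternatives, 309 kept direction and side of the threshold, 18 kept direction but were no longer called, and 3 turned sign. The last were H2-DMb1 in Cx3cr1 Cx43-/- against Control without Control 1 (0.083, with a range of -0.70 to 0.083 over left-out libraries), Ciita in the same comparison without Cx3cr1 Cx43-/- 4 (0.16, range -0.56 to 0.16) and Ciita in Cd11bDTR against Cx3cr1 Cx43-/- with quantile normalization (0.33), none of them called in any setting. With each library left out, 4 to 6 class II genes were called in Cd11bDTR against Control, 4 to 5 in Cd11bDTR against Cx3cr1 Cx43-/- and 0 in Cx3cr1 Cx43-/- against Control. Without the filter on low values, H2-DMa (adjusted p = 0.121) and H2-DMb1 (0.0793) were not called against Control, nor was H2-DMb1 against Cx3cr1 Cx43-/- (0.105), and quantile normalization lost the same calls (0.345, 0.0860 and 0.245). The filter at a mean of 5 CPM leaves out H2-DMb1 and Ciita.

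Counts over all genes moved more. With libraries left out they ranged over 2664 to 6274 in Cd11bDTR against Control (4678 with all), the lowest without Control 1, over 3302 to 7049 in Cd11bDTR against Cx3cr1 Cx43-/- (5604 with all), the lowest without Cx3cr1 Cx43-/- 5, and over 0 to 2 in Cx3cr1 Cx43-/- against Control (1 with all). The last was 0 with a pseudocount of 0.1 or no filter, 2 with a pseudocount of 2 and 4 with quality weights. Cd11bDTR against Cx3cr1 Cx43-/- gave 3362 with median-of-ratios scaling and 3356 with quantile normalization. Against Control the split of 417 higher and 4261 lower became 1136 and 2534 after rescaling to a common total and 1685 and 1675 with median-of-ratios scaling, which put the median of all genes at -0.18 and -0.04. The cause was not tested. No paired analysis was possible because replicate numbers are not shared between groups.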
